A study of Mus musculus with 18 samples.

Results

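The *Ehhadh*, *Acaa1b*, *Acadm*, *Acadl*, *Acadvl*, *Hadha*, *Hadhb* and *Acot1* transcripts, 8 genes of fatty acid oxidation, were followed in the liver, epididymal white adipose tissue (eWAT) and quadriceps muscle of mice on a high-salt diet. They were taken by name from the 21899 genes listed, and each of the 8 was found once, in all 18 libraries. The wider theme of the set is fatty acid oxidation with ketogenesis, but none of the 8 genes encodes an enzyme that makes ketone bodies, so the ketone body genes are given from a separate list below. Wild type male C57BL/6 mice aged 18 weeks were used in every group, with no transgene and no deletion. HSD mice received 12 weeks of chow with 8% NaCl and drank 0.9% saline, while CON mice received chow and tap water, so salt from the food and salt from the water cannot be told apart. Each tissue had 3 CON and 3 HSD libraries, which are named here by diet and replicate number, and some mice gave more than 1 tissue. A number does not name the same mouse in every tissue. Liver CON 2 and eWAT CON 1 came from the same mouse, whereas liver HSD 2 and eWAT HSD 2 came from different mice.

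Beta-oxidation shortens fatty acids by repeated rounds of dehydrogenation, hydration, further dehydrogenation and thiolysis, each round releasing acetyl-CoA. Mitochondria carry out most of it for energy, and peroxisomes begin the work on very long chains, with the liver passing much of the acetyl-CoA on to ketone bodies during fasting. Many of these genes are known targets of PPAR alpha, a nuclear receptor for fatty acids that acts as a heterodimer with RXR and is prominent in liver.

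*Ehhadh* encodes the peroxisomal bifunctional enzyme (hydratase and dehydrogenase) and lies at chr16:21761287-21787807 on the minus strand of GRCm38 (mm10, the GENCODE M21 annotation). *Acaa1b*, a peroxisomal thiolase, lies at chr9:119148023-119157093, minus strand. The mitochondrial acyl-CoA dehydrogenases for medium, long and very long chains are *Acadm* (chr3:153922357-153944632), *Acadl* (chr1:66830839-66863277) and *Acadvl* (chr11:70010183-70015411), all on the minus strand. *Hadha* (chr5:30118304-30155162, minus strand) and *Hadhb* (chr5:30155248-30184593, plus strand) encode the alpha and beta subunits of the mitochondrial trifunctional protein and stand head to head. *Acot1*, a cytosolic thioesterase that returns acyl-CoA to free fatty acid, lies at chr12:84009490-84018371 on the plus strand. All 8 are protein coding.

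The start regions of 6 of the 8 genes are shown because the measured RNAs begin there and because the pair *Hadha* and *Hadhb* shares its start region. Each sequence runs from 250 bases before to 50 bases after the RefSeq start (GRCm38.p6), 5′ to 3′ on the strand of the gene. In *Acadm* and *Acadvl* the capitals mark the core element AGGTCA or its reverse complement TGACCT, to which nuclear receptors of the PPAR and RXR kind bind. In *Hadha* and *Hadhb* they mark the 228 bases that both windows hold on opposite strands, their RefSeq starts being 273 bases apart. The GENCODE coordinates given above start *Hadha* at 30155162, inside its window and before the RefSeq start. Part of the stretch before the RefSeq start of *Hadha* therefore lies within the GENCODE gene.
Ehhadh, chr16:21787785-21788084, minus strand: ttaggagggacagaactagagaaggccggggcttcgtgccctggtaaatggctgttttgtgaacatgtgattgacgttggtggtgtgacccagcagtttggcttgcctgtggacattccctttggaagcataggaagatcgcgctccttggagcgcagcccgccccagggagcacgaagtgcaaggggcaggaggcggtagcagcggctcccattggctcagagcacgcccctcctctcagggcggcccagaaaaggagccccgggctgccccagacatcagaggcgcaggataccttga
Acaa1b, chr9:119157044-119157343, minus strand: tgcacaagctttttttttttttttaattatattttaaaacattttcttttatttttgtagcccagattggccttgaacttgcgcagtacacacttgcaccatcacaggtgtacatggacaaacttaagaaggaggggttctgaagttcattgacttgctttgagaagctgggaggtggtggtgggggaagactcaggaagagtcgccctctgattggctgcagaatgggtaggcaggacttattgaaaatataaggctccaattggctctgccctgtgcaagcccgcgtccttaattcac
Acadm, chr3:153944594-153944893, minus strand: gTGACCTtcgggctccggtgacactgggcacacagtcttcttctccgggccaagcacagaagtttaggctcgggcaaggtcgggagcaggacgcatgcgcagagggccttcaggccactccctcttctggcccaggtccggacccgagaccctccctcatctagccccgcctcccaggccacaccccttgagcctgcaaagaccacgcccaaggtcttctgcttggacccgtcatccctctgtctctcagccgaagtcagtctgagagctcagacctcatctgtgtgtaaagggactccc
Acadvl, chr11:70015379-70015678, minus strand: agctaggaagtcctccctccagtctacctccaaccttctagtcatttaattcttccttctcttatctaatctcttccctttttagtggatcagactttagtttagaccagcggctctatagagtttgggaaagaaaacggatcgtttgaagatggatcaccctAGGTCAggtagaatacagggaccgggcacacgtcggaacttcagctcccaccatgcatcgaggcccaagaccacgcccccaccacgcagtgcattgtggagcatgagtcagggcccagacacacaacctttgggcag
Hadha, chr5:30154931-30155230, minus strand: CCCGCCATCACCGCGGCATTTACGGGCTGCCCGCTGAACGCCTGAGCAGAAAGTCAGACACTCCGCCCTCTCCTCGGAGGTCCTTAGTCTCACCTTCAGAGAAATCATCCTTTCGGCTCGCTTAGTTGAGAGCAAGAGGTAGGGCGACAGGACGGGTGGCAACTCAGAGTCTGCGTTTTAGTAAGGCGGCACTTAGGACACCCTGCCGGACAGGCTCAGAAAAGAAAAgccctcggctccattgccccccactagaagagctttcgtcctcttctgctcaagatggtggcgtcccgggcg
Hadhb, chr5:30155003-30155302, plus strand: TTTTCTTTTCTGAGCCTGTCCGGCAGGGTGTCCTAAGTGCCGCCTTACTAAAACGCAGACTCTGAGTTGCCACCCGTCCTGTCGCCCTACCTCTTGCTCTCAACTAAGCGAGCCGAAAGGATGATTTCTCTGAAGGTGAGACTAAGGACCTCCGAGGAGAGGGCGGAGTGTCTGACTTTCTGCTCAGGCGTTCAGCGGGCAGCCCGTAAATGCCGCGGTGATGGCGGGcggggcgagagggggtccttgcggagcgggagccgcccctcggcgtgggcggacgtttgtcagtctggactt
The core element was searched on both strands and occurred in 2 of the 8 windows, against 16.3% of 32851 windows of the same length. Counted from the start, its first base was at position -249 in *Acadm*, on the opposite strand, and at -87 in *Acadvl*, on the strand of the gene. A pair of core elements in the same direction with 1 base between them, searched with at most 2 mismatches in all, occurred in 0 of the 8 windows and in 3.86% of all windows. These counts describe letters in short windows only.

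RNA abundance was given as FPKM, fragments per kilobase of exon, scaled to the size of the library. Depth was between 7620920 and 16607127 fragments per library. Because FPKM is a share, every value also depends on what else the library holds. Mitochondrially encoded mRNAs took 15.4% to 60.9% of the fragments of liver libraries, 3.53% to 5.12% of those of eWAT and 11.3% to 16.5% of those of muscle. The summed level of 10 hepatocyte markers, *Alb* among them, was 12706 to 65887 FPKM in liver libraries, with none at 0. The 8 adipocyte markers summed to 2703 to 8058 FPKM in eWAT, with none at 0, and the 8 skeletal muscle markers to 51996 to 66208 FPKM in muscle, with none at 0. Liver CON 2 stood apart, with 4385 FPKM of skeletal muscle markers against 2.32 to 5.41 in the other liver libraries. eWAT HSD 2 also stood apart, with 19363 FPKM of 12 epididymal epithelium markers against at most 10.1 in the other eWAT libraries, and with the lowest adipocyte marker sum. Results in these tissues are therefore given with and without these libraries. The 8 macrophage markers summed to less in HSD than in CON in every tissue without overlap, at 21.1 to 33.9 against 39.2 to 60.7 FPKM in liver, 253 to 540 against 581 to 861 in eWAT, and 39.7 to 42.9 against 55.6 to 89.8 in muscle. Blood cell markers summed to 5626 FPKM in liver CON 2, against 237 to 842 in the other livers. They summed to 5667 in eWAT CON 1, against 243 to 744 in the other eWAT libraries. In muscle CON 1 they summed to 965, against 124 to 224 in the other muscles. The high library of each tissue came from the same CON mouse. The part of these differences in the results below was not tested, other than by leaving libraries out.

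The question of where each gene is used was addressed first, in the 9 CON libraries. By FPKM the peroxisomal genes were liver and fat genes, and most of the mitochondrial genes were highest in muscle. In the test below on FPKM as deposited, none of the mitochondrial genes passed between eWAT and muscle. In bulk tissue, fewer cells of a type and less RNA per cell cannot be told apart. *Acaa1b* was at 255, 250 and 342 FPKM in the CON livers, at 26.7, 28.6 and 24.3 FPKM in eWAT and at 0.0769, 0.646 and 0.228 FPKM in muscle, where only 2 to 15 fragments were counted in any library. No library of one tissue overlapped another. *Ehhadh* was at 4.84, 17.6 and 17.3 FPKM in liver, 27.2, 27.3 and 22.2 FPKM in eWAT, and 3.9998, 4.84 and 2.999 FPKM in muscle. The lowest liver library and the highest muscle library were both at 4.84 FPKM, so those groups overlapped at the edge.

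For the trifunctional protein, *Hadha* measured 6.08, 20.2 and 6.51 FPKM in liver, 27.4, 26.1 and 26.4 FPKM in eWAT and 51.4, 54.4 and 46.6 in muscle. *Hadhb* measured 4.85, 19.2 and 3.70 FPKM in liver, 32.4, 32.2 and 31.4 FPKM in eWAT and 54.5, 64.4 and 54.6 in muscle. Both subunits followed the order muscle, eWAT, liver with no overlap, and the high liver value of each was the library that holds skeletal muscle transcripts. *Acadvl* had the same order, at 8.25, 18.2 and 6.02 FPKM in liver, 34.5, 33.3 and 31.3 FPKM in eWAT and 63.2, 69.3 and 57.1 in muscle. *Acadm* was at 25.2, 73.1 and 41.8 FPKM in liver, 108, 113 and 108 FPKM in eWAT and 90.8, 108 and 93.6 in muscle, and *Acadl* at 20.9, 116 and 55.1, at 103, 109 and 94.2, and at 145, 137 and 135. *Acadl* was higher in every muscle library than in every eWAT library, whereas *Acadm* overlapped between these tissues, and liver CON 2 lay above every CON eWAT library for *Acadl*. *Acot1* was low throughout, at 0.335, 1.19 and 0.753 FPKM in liver, 1.78, 0.960 and 0.322 FPKM in eWAT, and 0.116, 0.215 and 0.205 in muscle.

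**Figure D1:**
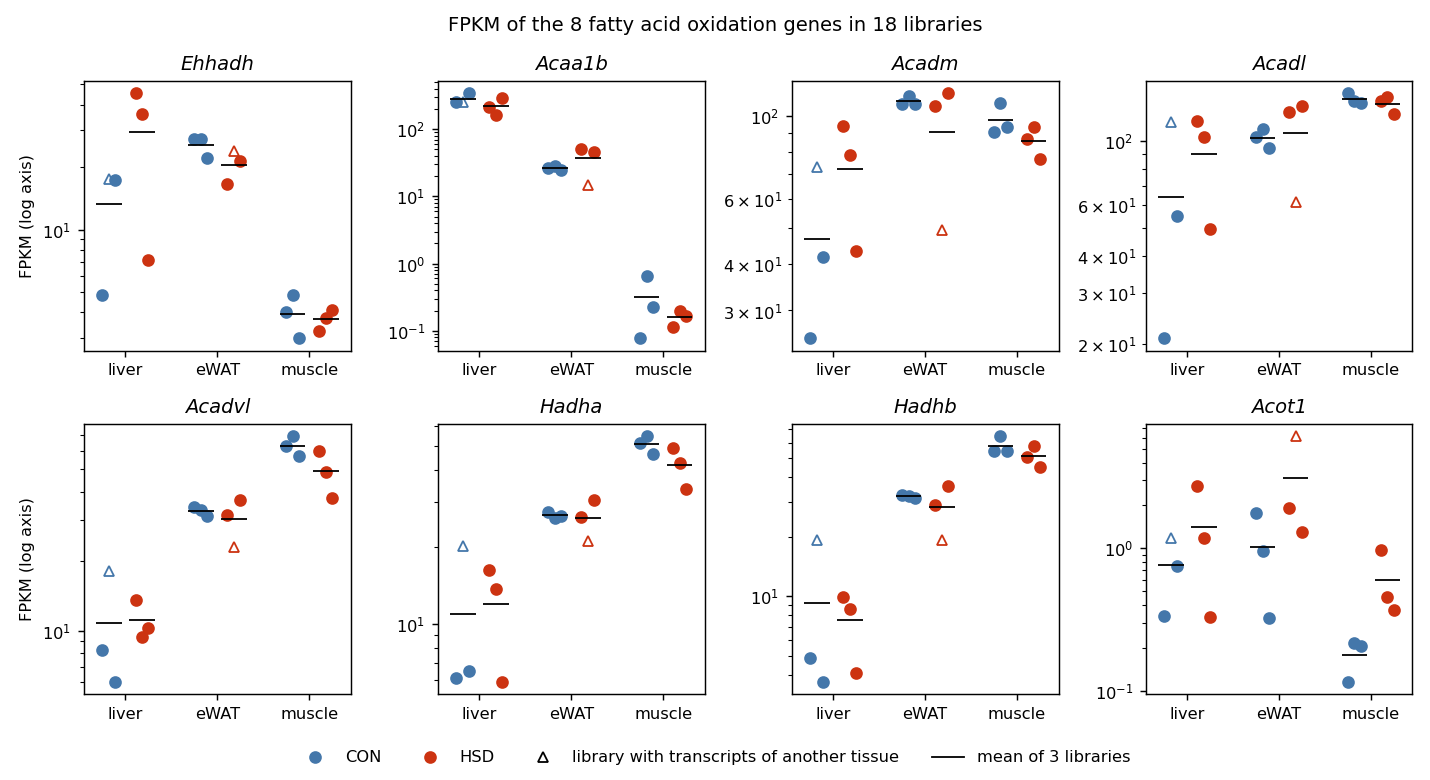
FPKM on a log axis of the 8 genes in liver, eWAT and muscle, with a point for each of the 3 CON (blue) and 3 HSD (red) libraries of a tissue, a bar at the group mean, and open triangles for the 2 libraries that hold transcripts of another tissue. *Acaa1b* is at 250 to 342 FPKM in CON liver and at most 0.646 in muscle, whereas *Hadha*, *Hadhb* and *Acadvl* are highest in muscle.

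By limma, 7 of the 8 genes passed the test between CON liver and CON muscle (p adjusted by the Benjamini-Hochberg method under 0.05, with a difference of 1 or more in either direction on the log2(FPKM + 0.5) scale), against 50.1% of all 12637 genes tested. *Acaa1b* was higher in liver by 8.48 on the log2 scale (SE 0.259, adjusted p = 2.81e-08) and *Ehhadh* by 1.45 (SE 0.431, adjusted p = 0.0131). *Hadhb* (-2.93), *Acadvl* (-2.64), *Hadha* (-2.38), *Acadl* (-1.43) and *Acadm* (-1.18) were lower in liver, and *Acot1* did not pass (0.83, adjusted p = 0.065). Without liver CON 2 it was again 7 of 8, against 53.1% of all genes, while leaving out liver CON 3 or muscle CON 3 left 5, *Ehhadh* and *Acadl* being lost each time. Leaving out muscle CON 1 or CON 2 lost *Acadl* alone, and leaving out liver CON 1 lost *Acadl* and *Acadm* and added *Acot1*. Over all 9 leave-outs 47.6% to 53.1% of all genes were called.

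Between eWAT and muscle, 3 of the 8 passed, against 54.9% of all genes, and all 3 were higher in eWAT, namely *Acaa1b* (5.11), *Ehhadh* (2.56) and *Acot1* (1.05). Leaving out any of 5 of the CON libraries of these tissues removed *Acot1* from this count, while 53.4% to 55.6% of all genes were called over the 9 leave-outs. The mitochondrial genes did not pass here, at -0.92 for *Acadvl*, -0.91 for *Hadha*, -0.84 for *Hadhb*, -0.44 for *Acadl* and 0.17 for *Acadm*. The tissues shared 1 estimate of spread for each gene, so the liver spread entered this contrast too. For *Acadvl* the SE was 0.341 in each of the 3 contrasts. Between liver and eWAT, 6 of the 8 passed, against 69.4% of all genes, *Acaa1b* being higher in liver (3.37) and *Hadhb* (-2.09), *Acadvl* (-1.71), *Hadha* (-1.46), *Acadm* (-1.35) and *Ehhadh* (-1.11) lower. *Ehhadh* was lost from this count without any single eWAT library, liver CON 1 or muscle CON 1, *Acadm* was lost without liver CON 1, and *Acadl* was added without liver CON 2, while 67.9% to 71.2% of all genes were called over the 9 leave-outs. The median gene differed by -0.52 between liver and muscle, 0.93 between eWAT and muscle and -1.36 between liver and eWAT, so these contrasts depend on how libraries are scaled. With libraries scaled by median ratios, 6, 6 and 1 of the 8 genes passed in the 3 contrasts (liver minus muscle, eWAT minus muscle, liver minus eWAT), against 48.7%, 38.1% and 41.9% of all genes. Of the 6 in eWAT minus muscle, 2 were then higher and 4 lower in eWAT. *Acaa1b* remained higher in liver than in both other tissues and *Hadhb*, *Hadha* and *Acadvl* lower in liver than in muscle under that scaling, but *Ehhadh*, *Acadm*, *Acadl*, *Hadha* and *Acot1* turned from lower to higher in liver than in eWAT, none of them passing.

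The question of whether the diet changed these genes in liver was taken next. None of the 8 passed the test over all 6 liver libraries. In most of them HSD 1 and HSD 2 were above CON 1 and CON 3, while HSD 3 was near CON 1 and CON 3, and CON 2 was near or above HSD 2 for several of them. *Ehhadh* was at 4.84, 17.6 and 17.3 FPKM in CON 1 to 3 and at 45.3, 36.2 and 7.18 FPKM in HSD 1 to 3. HSD 1 and HSD 2 were above every CON liver, and HSD 3 lay between CON 1 and the other CON livers. The group means were 13.3 ± 7.30 (SD, n = 3) and 29.6 ± 19.9 FPKM (SD, n = 3), a log2 fold change of 0.97 (SE 0.776, 95% confidence interval -0.85 to 2.78, limma adjusted p = 0.764).

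*Acaa1b*, the other peroxisomal enzyme of the set, pointed the other way. It was at 255, 250 and 342 FPKM in CON and at 211, 165 and 294 FPKM in HSD livers, with a log2 fold change of -0.36 (SE 0.413, adjusted p = 0.8). HSD 1 and HSD 2 were below every CON liver, and HSD 3 was again among them. The ratio of *Ehhadh* to *Acaa1b*, which no scaling of a library can change, was 0.0190, 0.0706 and 0.0508 in CON and 0.215, 0.219 and 0.0244 in HSD livers (two-sided exact permutation test, p = 0.3). For 3 libraries against 3 this test cannot go below 0.1.

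*Acaa1a* and *Acot2*, the closest relatives of *Acaa1b* and *Acot1*, can share reads with them. The longest coding transcripts of *Acaa1b* and *Acaa1a* were 93.5% identical over 1638 aligned bases, and 13.3% of the windows of 150 bases (1 read) of *Acaa1b* also occurred in *Acaa1a*, so their counts are uncertain. *Acot1* and *Acot2* were 82.6% identical over 2004 bases, with 9.85% of such windows shared. *Acaa1a* was at 26.1, 31.95 and 30.01 FPKM in CON and 49.7, 30.5 and 37.9 in HSD livers (log2 fold change 0.39, adjusted p = 0.764). The ratio of *Acaa1b* to *Acaa1a* was 9.74, 7.81 and 11.4 in CON and 4.24, 5.40 and 7.77 in HSD livers. All 3 HSD livers lay below all 3 CON livers in this ratio, the nearest pair by a narrow margin (exact permutation test, p = 0.1, the smallest it can give). The ratios were chosen after their values were seen.

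Of the acyl-CoA dehydrogenases, *Acadm* had HSD 1 and HSD 2 above every CON liver, as *Ehhadh* did, and *Acadl* and *Acadvl* did not. *Acadm* was at 25.2, 73.1 and 41.8 FPKM in CON and 94.0, 78.5 and 43.3 FPKM in HSD livers (log2 fold change 0.68, SE 0.506, adjusted p = 0.764). *Acadl* was at 20.9, 116 and 55.1 FPKM in CON and 117, 103 and 49.7 in HSD (0.71, SE 0.667, adjusted p = 0.772). In both genes CON 2 was close to HSD 1 and HSD 2, and HSD 3 close to CON 3. *Acadvl* spanned 6.02 to 18.2 FPKM in CON and 9.40 to 13.6 in HSD (0.17, SE 0.42), a narrower range in HSD, set within the CON range. Of its 2686 exon bases 1151 overlap *Dvl2* on the opposite strand, and whether the counting used strand is not given in the sources used here, so reads of these 2 genes may not be told apart.

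The subunits of the trifunctional protein kept close to each other. *Hadha* was at 6.08, 20.2 and 6.51 FPKM in CON and 16.2, 13.6 and 5.91 in HSD livers (0.22, SE 0.554), and *Hadhb* at 4.85, 19.2 and 3.70 in CON and 9.94, 8.59 and 4.10 in HSD livers (-0.01, SE 0.614). CON 2 was the highest liver for both and for *Acadvl*. The ratio of *Hadha* to *Hadhb* ran from 1.05 to 1.76 across the 6 livers, 0.812 to 1.10 across eWAT and 0.740 to 0.971 across muscle. *Acot1* was at 0.335, 1.19 and 0.753 FPKM in CON and 2.72, 1.18 and 0.328 in HSD livers, from 10 to 111 fragments a library (log2 fold change 0.45, SE 0.509, adjusted p = 0.8). Its relative *Acot2* had a log2 fold change of -0.72 (SE 0.359, adjusted p = 0.764).

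**Figure D2:**
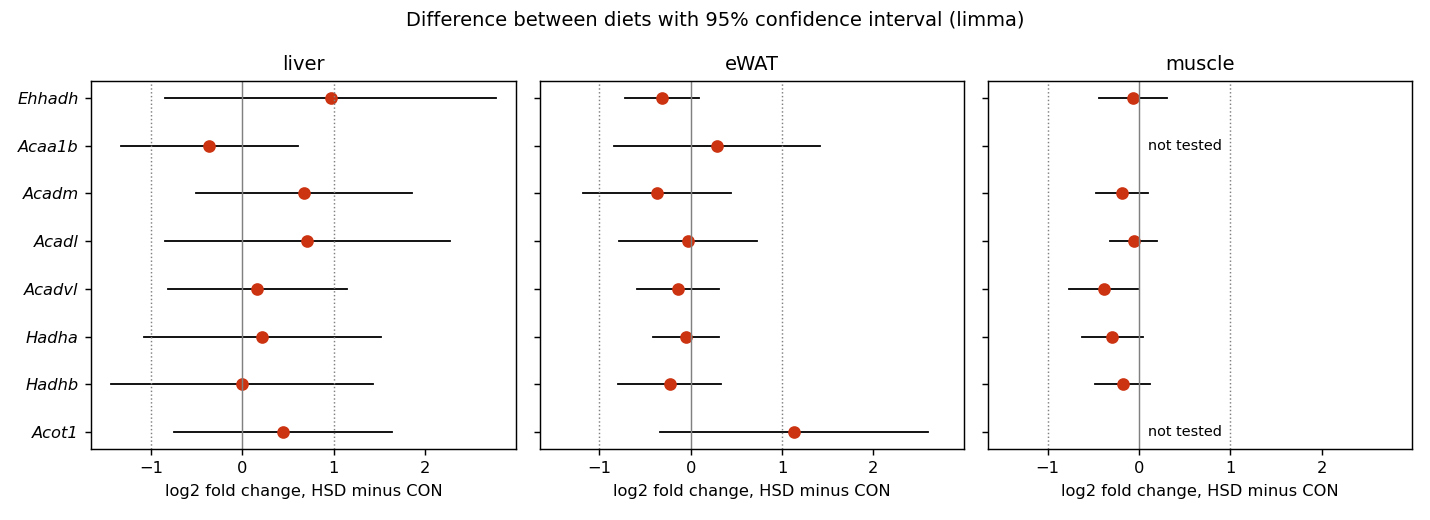
Log2 fold change of HSD minus CON (x axis) with its 95% confidence interval for each of the 8 genes in liver, eWAT and muscle, 3 libraries against 3 in each, with dotted lines at a log2 fold change of -1 and 1. Liver intervals are the widest for most genes and all of them span 0, as all do in eWAT, while in muscle the interval of *Acadvl* just misses 0, and 2 genes of low level in muscle were not tested.

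Counted together, 6 of the 8 genes were higher and 2 lower in HSD liver, 0 passed the test, and their median log2 fold change was 0.33, beside 0.13 over all genes tested. The test called 0% of the 10317 genes, 592 of which had an unadjusted p under 0.05 by limma. None of the 8 had HSD livers that were all above or all below the CON livers, a state found in 8.62% and 3.47% of all genes.

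The libraries behind this spread differed in measured ways. The mitochondrially encoded share was 60.9%, 25.7% and 37.9% in CON 1 to 3 and 16.3%, 15.4% and 44.4% in HSD 1 to 3, and *Ehhadh*, *Acadm* and *Acadl* were highest in HSD 1 and lowest in CON 1. HSD 3, between CON 3 and CON 1 in share, had *Ehhadh* (7.18 FPKM) and *Acot1* (0.328) near the level of CON 1 (4.84 and 0.335). Its *Acadm* (43.3 FPKM) and *Acadl* (49.7) were nearer to CON 3 (41.8 and 55.1) than to CON 1 (25.2 and 20.9). With the mitochondrially encoded genes left out and the other genes rescaled, the median log2 fold change of the 8 genes was 0.01, with 4 higher and 4 lower, while the median of all genes was -0.26. *Ehhadh* then had a log2 fold change of 0.57 and *Acaa1b* of -0.78, and *Acadvl* (-0.24) and *Hadha* (-0.18) turned to lower in HSD. CON 2 held *Acta1*, the skeletal actin, at 10.1% of its mean level in CON muscle, and the other muscle markers from 1.57% (*Myh4*) to 29.2% (*Myh1*), with *Tnnc2* listed at 0. It also held *Oxct1*, an enzyme of ketone body use, at 32.6 FPKM against 0.259 to 0.460 in the other livers. The levels in CON 2 were 33.2% of the muscle mean for *Hadhb*, 39.9% for *Hadha* and 28.7% for *Acadvl*, and 74.9% for *Acadm* and 83.4% for *Acadl*.

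**Figure D3:**
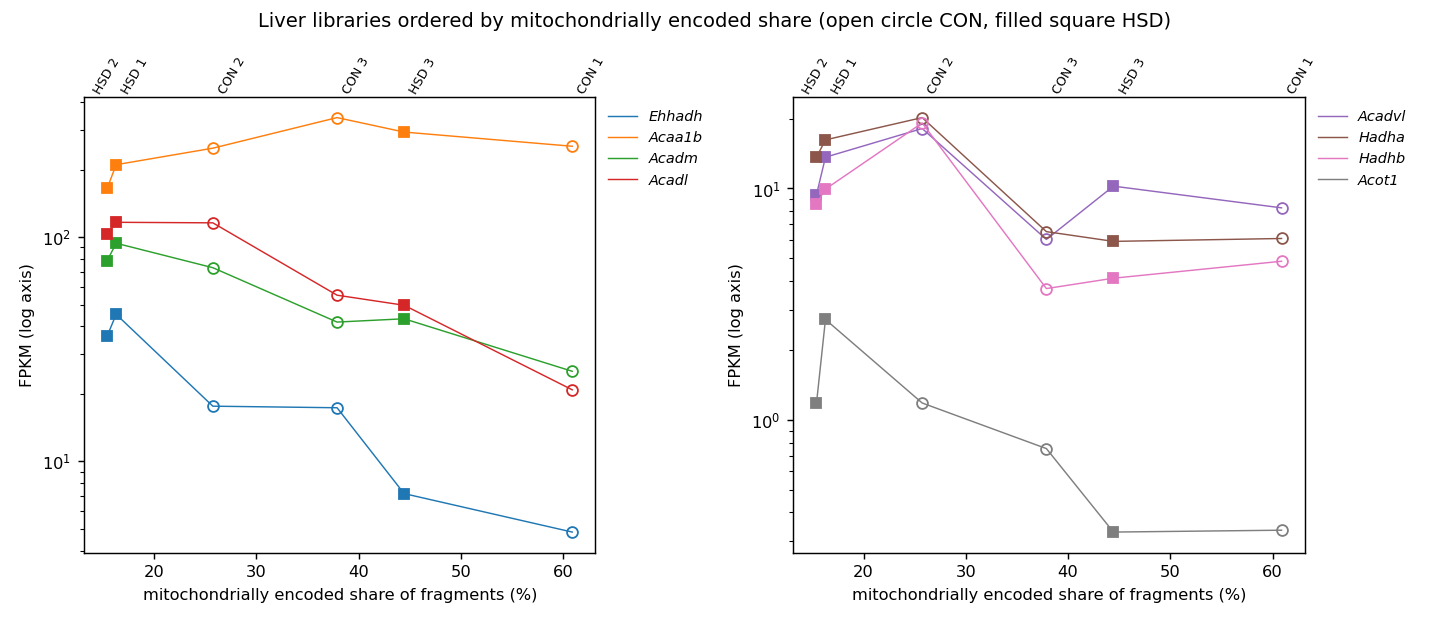
FPKM on a log axis of the 8 genes in the 6 liver libraries against the share of fragments from mitochondrially encoded genes (x axis, percent), open circles for CON and filled squares for HSD, with the library named above each position. *Ehhadh*, *Acadm* and *Acadl* are highest in HSD 1 at 16.3% and lowest in CON 1 at 60.9%, while *Acaa1b* is lowest in HSD 2 at 15.4%.

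Without CON 2, the log2 fold changes in liver were 1.27 for *Ehhadh*, 1.30 for *Acadl*, 1.06 for *Acadm* and 0.76 for *Hadha*, with adjusted p between 0.506 and 0.723 over the 8 genes by limma, and again none passed. The study's quality table leaves out CON 2 and HSD 3. Over the other 4 livers the 8 genes moved further apart. *Ehhadh* was at 11.1 ± 8.84 FPKM in CON and 40.7 ± 6.43 FPKM in HSD (SD, n = 2 each), with a log2 fold change of 2.07 (SE 0.555, limma adjusted p = 0.0734). *Acadl* (1.67), *Acadm* (1.39), *Acot1* (1.19), *Hadha* (1.18) and *Hadhb* (1.04) also had unadjusted p under 0.05, as 31.7% of all genes did, whereas *Acadvl* (0.65) and *Acaa1b* (-0.66) did not. Still 0 of the 8 passed, against 0.351% of 9970 genes. All 8 had groups that did not overlap there, 7 above and *Acaa1b* below, against 45.3% of all genes above and 19.3% below. With libraries weighted by limma's arrayWeights, 7 of the 8 passed, all higher in HSD and between 1.05 and 1.38, against 8.98% of all genes, *Acaa1b* being the exception (-0.68, adjusted p = 0.000724, under the fold threshold). In that setting 7123 of 10317 genes had a limma adjusted p under 0.05, against 0 with unweighted libraries, so the fold threshold did most of the selecting. The weights were estimated from these same 6 libraries.

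In eWAT none of the 8 genes passed the test between diets, and the estimates ran from -0.37 for *Acadm* to 1.13 for *Acot1*. *Ehhadh* was at 27.2, 27.3 and 22.2 FPKM in CON and 16.6, 23.8 and 21.4 FPKM in HSD (log2 fold change -0.31, SE 0.165, limma adjusted p = 0.378). *Acaa1b* was at 26.7, 28.6 and 24.3 FPKM in CON and 49.9, 15.0 and 45.3 in HSD (0.29, SE 0.459, adjusted p = 0.737). HSD 1 and HSD 3 were above every CON library for *Acaa1b* and HSD 2, the library with epididymal transcripts, below every one. The summed hepatocyte markers of eWAT moved the same way, at 1088 to 1592 FPKM in CON and 2148, 672 and 2577 FPKM in HSD 1 to 3. Nearly all of that sum was *Cyp2e1* (942 to 1402 FPKM in CON and 2131, 664 and 2567 in HSD), while *Alb* went the other way, at 53.9 to 167 FPKM in CON and 3.30 to 7.85 in HSD. Skeletal muscle markers summed to 7.61 to 16.6 FPKM in CON and 27.8 to 43.6 in HSD eWAT. The part of these in the result was not tested. The ratio of *Ehhadh* to *Acaa1b* was 0.913 to 1.02 in CON and 0.332, 1.59 and 0.471 in HSD 1 to 3 (exact permutation test, p = 0.4).

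The same library was the lowest of all 6 for each mitochondrial gene. HSD 2 had 49.4 FPKM of *Acadm*, against 107 to 115 in the other 5 libraries. It had 61.4 FPKM of *Acadl* against 94.2 to 132, 22.9 of *Acadvl* against 31.3 to 36.7, 21.1 of *Hadha* against 26.1 to 30.7 and 19.2 of *Hadhb* against 29.0 to 36.3. *Acadl* was above every CON library in HSD 1 and HSD 3, and HSD 2 was the low library for all 5 genes, beside its low adipocyte marker sum (2703 FPKM against 7465 to 8058). *Acot1* ran the other way, with 6.10 FPKM in HSD 2, against 1.91 and 1.31 in the other HSD libraries and 0.322 to 1.78 in CON (log2 fold change 1.13, SE 0.597, adjusted p = 0.382).

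With all libraries 2 of the 8 genes were higher and 6 lower in HSD eWAT, the median log2 fold change was -0.10 beside 0.08 over all genes, and 0 passed, against 0% of 13740 genes (2298 had an unadjusted p under 0.05 by limma). None of the 8 had groups that did not overlap, against 16.2% of all genes above and 12.4% below. Without HSD 2, 7 were higher and 1 lower, with a median of 0.07. *Acaa1b* then had a log2 fold change of 0.83 (SE 0.0941, limma adjusted p = 0.0227), past the p threshold but not the fold threshold, where 7.43% of 13245 genes were past the former and 1.21% past both. *Acadl* (0.33, adjusted p = 0.0789) and *Ehhadh* (-0.42, adjusted p = 0.125) did not pass. The relative *Acaa1a* was 0.20 higher on the log2 scale without HSD 2 (adjusted p = 0.141), and 31.3 to 33.1 FPKM in CON against 34.9 to 38.6 in HSD over all libraries. Over the libraries of the study's quality table, which keeps HSD 2 and leaves out HSD 3, 2 of the 8 genes were higher and 6 lower and 0 passed.

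In quadriceps muscle 6 of the 8 genes had a mean of at least 0.5 FPKM and were tested. All 6 were lower in HSD and 0 passed, against 0.323% of 10834 genes. *Acadvl* was at 63.2, 69.3 and 57.1 FPKM in CON and 60.2, 48.8 and 37.7 FPKM in HSD (log2 fold change -0.39, SE 0.17, limma adjusted p = 0.302). *Hadha* was at 51.4, 54.4 and 46.6 in CON and 49.1, 42.6 and 33.8 in HSD (-0.29, SE 0.15, adjusted p = 0.378), and *Hadhb* at 54.5, 64.4 and 54.6 in CON and 50.6, 57.6 and 45.2 in HSD (-0.18, SE 0.132). For each of the 3, HSD 3 was the lowest library and the groups overlapped.

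*Acadm* (-0.19, SE 0.128), *Ehhadh* (-0.07, SE 0.167) and *Acadl* (-0.06, SE 0.114) were closer to 0. *Acadl* was 135 to 145 FPKM in CON and 123 to 141 in HSD, *Acadm* 90.8 to 108 and 76.8 to 93.6, and *Ehhadh* 2.999 to 4.84 and 3.25 to 4.11. The median of the 6 genes was -0.18, beside -0.06 over all genes, and under median-ratio scaling it was -0.10, with 4 of the 6 lower. Muscles with the same replicate number deviated together to some degree (r = 0.383, 0.177 and 0.184 across genes), and the replicate number was also used as a block. The labels give no pairing of CON with HSD mice by that number. The block therefore rests on these same libraries, and its p-values are no separate support. With the block 54 genes were called in place of 35, and again 0 of the 6, *Acadvl* being nearest (-0.39, SE 0.12, limma adjusted p = 0.122).

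*Acot1* was the only one of the 8 genes whose diets did not overlap in a tissue. It was at 0.116, 0.215 and 0.205 FPKM in CON and 0.978, 0.452 and 0.370 FPKM in HSD muscle, from 6 to 51 fragments a library. All HSD muscles were above all CON muscles, as they were for 6.72% of the genes at a mean of at least 0.5 FPKM, a set without *Acot1*. An exact permutation test gave p = 0.1, the smallest it can give. Groups that do not overlap always give this p, so it adds nothing to their order. Being under the filter *Acot1* was not in the main test, and with no filter its log2 fold change was 0.66 (SE 0.198, limma adjusted p = 0.229). *Acot2*, its mitochondrial relative and at 12.0 to 41.3 times its level in muscle, was also higher in HSD (0.85, SE 0.26, adjusted p = 0.158, 0.0573 with the replicate block) without passing, although it passed without HSD 3. *Acaa1b* was at 0.0769 to 0.646 FPKM in CON and 0.115 to 0.196 in HSD muscle, too few fragments for a comparison.

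Whether the diet effect differed between tissues was tested as an interaction over all 18 libraries. All groups shared 1 estimate of spread for each gene, so the liver spread entered every contrast, eWAT minus muscle included. For *Acadvl* the SE was 0.443 in each contrast, against 0.182 in eWAT and 0.17 in muscle in the fits by tissue. A gene that did not pass is therefore not shown to respond alike in eWAT and muscle. None of the 8 genes passed in any of the 3 contrasts, against 0.0612% of 13067 genes for liver minus muscle, 0% for eWAT minus muscle and 0.758% for liver minus eWAT. The estimates for the 8 genes ran from -0.21 to 1.03, from -0.25 to 0.54 and from -0.68 to 1.28 on the log2 scale, the highest for liver minus muscle and for liver minus eWAT being *Ehhadh*. The -0.21 was that of *Acot1* and the 0.54 that of *Acaa1b*. In muscle these rest on 6 to 51 and 2 to 15 fragments a library, and both were left out of the muscle test. The adjusted p of the 8 genes by limma were between 0.405 and 0.995. Without liver HSD 3, 1 of the 8 passed for liver minus eWAT, which was *Ehhadh* (2.09, SE 0.54, limma adjusted p = 0.0429), against 4.15% of 13119 genes in that setting. Liver HSD 3 is the HSD liver with low *Ehhadh*, at 7.18 FPKM against 45.3 and 36.2, and no other single leave-out gave a call among the 8. For this contrast 0 of the 8 passed without liver CON 2, against 238 of 13117 genes. Without eWAT HSD 2 it was also 0, against 102 of 12647 genes.

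The other genes of the pathway, 70 in 6 lists, give the setting of the 8. In liver 65 of them were tested and 0 passed over all libraries. Of the carnitine shuttle and activation genes 7 of 9 were higher in HSD (median 0.63), as were 13 of 15 other mitochondrial beta-oxidation genes (0.69), 13 of 16 other peroxisomal genes (0.32), 6 of 8 other thioesterases (0.43), 4 of 6 ketone body genes (0.69) and 9 of 11 of PPAR alpha, its partners and targets (0.63). Over the 6 lists together 52 were higher and 13 lower, with a median of 0.56 beside 0.13 over all genes. With mitochondrially encoded genes left out they were 42 and 24, with a median of 0.14 beside -0.26, and without CON 1 they were 45 and 20, with a median of 0.20 beside 0.09. Without CON 2, which holds skeletal muscle transcripts, they were 53 and 11, with a median of 0.75 beside 0.20. Without HSD 3 they were 52 and 13, with a median of 0.75 beside 0.15. The smallest unadjusted p belonged to *Aacs*, which activates acetoacetate for lipid synthesis (25.3, 5.44 and 15.4 FPKM in CON and 1.44, 1.80 and 3.89 in HSD, log2 fold change -2.32, adjusted p = 0.764). *Acad11*, an acyl-CoA dehydrogenase (1.12, SE 0.293), and *Cpt1a*, the carnitine palmitoyltransferase that admits fatty acids to mitochondria (0.91, SE 0.313), followed, each with an adjusted p of 0.764.

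When only the 4 livers of the quality table were used, 2 of 64 pathway genes passed. *Aacs* fell by 3.26 on the log2 scale (SE 0.338, limma adjusted p = 0.0131), and *Cyp4a14*, a fatty acid omega-hydroxylase and PPAR alpha target, rose by 3.58 (SE 0.521, adjusted p = 0.0365). *Cyp4a14* was at 1.36, 9.46 and 5.46 FPKM in CON and 44.0, 35.1 and 3.91 in HSD livers, so that HSD 1 and HSD 2 were high and HSD 3 was not, as for *Ehhadh*.

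In eWAT 0 of 61 pathway genes passed. The smallest p were those of *Acot13*, a mitochondrial thioesterase (0.60, SE 0.12, limma adjusted p = 0.136), *Acad10*, a member of the acyl-CoA dehydrogenase family (0.45, SE 0.122, adjusted p = 0.189), and *Oxct1* (-0.61, SE 0.185, adjusted p = 0.216). The other mitochondrial list was 4 higher and 11 lower (median -0.05), the other peroxisomal list 3 and 11 (-0.15). All lists together were 26 higher and 35 lower (median -0.02, beside 0.08 over all genes), and 33 and 25 without HSD 2 (0.06, beside 0.04). In muscle 0 of 57 passed, although *Bdh1*, which interconverts the ketone bodies acetoacetate and 3-hydroxybutyrate, was past the p threshold (-0.92, SE 0.135, adjusted p = 0.0227) and short of the fold threshold. *Pdk4*, a kinase that holds back pyruvate oxidation, was at 72.0, 50.5 and 29.7 FPKM in CON and 243, 221 and 81.9 in HSD muscle (1.77, SE 0.414, adjusted p = 0.0873). It passed with the replicate block (limma adjusted p = 0.0022), a pairing that the labels do not give, and without HSD 3. *Acot11*, another thioesterase, had a log2 fold change of -0.61 (SE 0.149, adjusted p = 0.0936). In muscle 5 of 6 ketone body genes were lower (median -0.22), as were 10 of 14 other mitochondrial (-0.11) and 11 of 13 other peroxisomal genes (-0.13). All lists together were 17 higher and 40 lower (median -0.12, beside -0.06 over all genes), and 23 and 34 under median-ratio scaling (-0.03, beside 0.01).

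**Figure D4:**
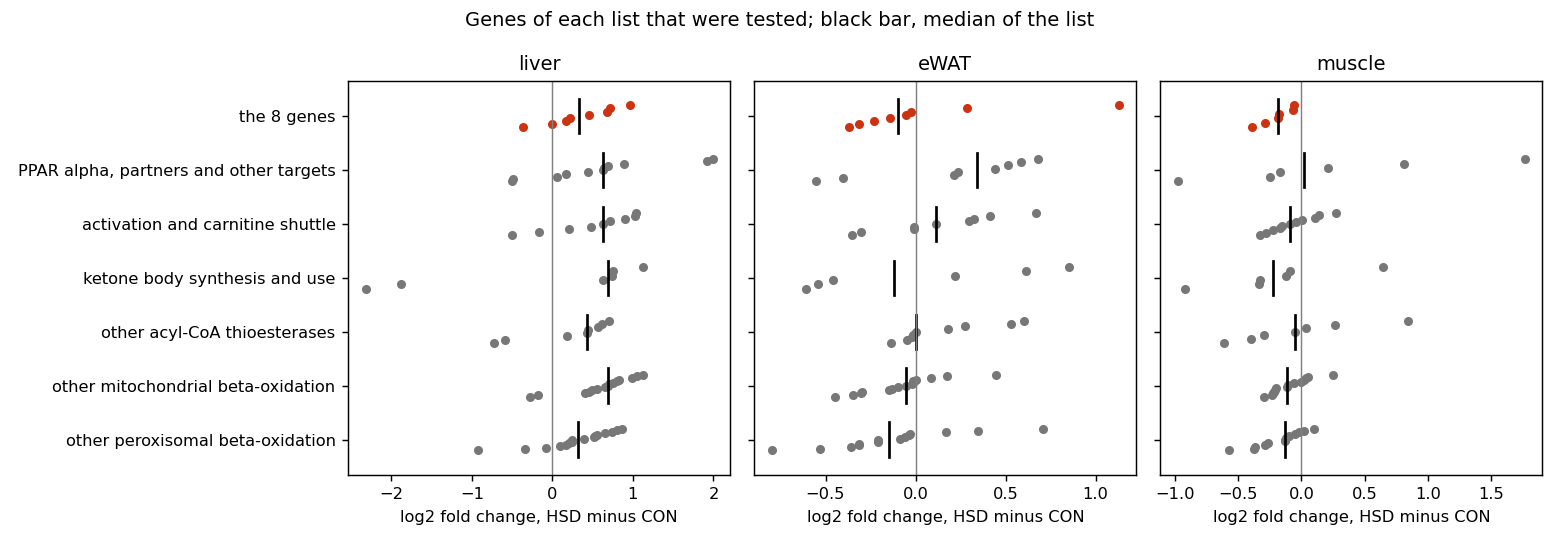
Log2 fold change of HSD minus CON (x axis) for each tested gene of the 8 and of the 6 pathway lists in liver, eWAT and muscle, a point a gene and a black bar at each list's median. Medians in liver run from 0.32 to 0.69 for the 6 lists and that of the 8 genes is 0.33, whereas medians in muscle run from -0.22 to 0.02.

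Within tissues, the 8 genes varied together across libraries to different degrees. With the mean of each tissue removed, the Pearson r over 18 libraries of each gene with the mean of the other 7 was 0.907 for *Hadha*, 0.899 for *Acadl*, 0.847 for *Acadm*, 0.763 for *Hadhb*, 0.663 for *Ehhadh*, 0.633 for *Acadvl*, 0.193 for *Acot1* and -0.13 for *Acaa1b*. Within single tissues, over 6 libraries each, *Acaa1b* had -0.60 in liver, 0.70 in eWAT and 0.47 in muscle, *Acot1* had 0.88, -0.68 and -0.35, and *Ehhadh* had 0.79, -0.36 and 0.17. Of 7307 other genes, the 5 most like the mean of the 8 were *Sdha* (0.941) and *Uqcrc2* (0.935) of the respiratory chain, *Lnpep*, an aminopeptidase (0.934), *Gabpa*, a transcription factor (0.933), and *Hspa9*, the mitochondrial chaperone (0.924). Within single tissues these 5 genes had r of 0.952 to 0.965 in liver, 0.728 to 0.964 in eWAT and 0.663 to 0.883 in muscle. The points share libraries, scaling and depth, and no test is attached to these values.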

How the data were processed

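The authors depleted rRNA from total RNA, made stranded TruSeq libraries and sequenced paired reads of 150 bases. Per the study's methods and the submitters' processing notes, reads were trimmed, aligned to mm10 with HISAT2 and summarised per gene with cuffdiff, and the notes also name HTSeq 0.9.1 and mm9, without their role. The deposited values are FPKM, relative to gene length and to the mapped fragments of the library, computed by the authors. The counts behind them were not used here, so the authors' DESeq2 was not run.

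From the FPKM, fragments were recovered with GENCODE M21 exon lengths, and 18299 of 18776 genes were whole in all libraries within 0.01 fragments. This gave the depth (7620920 to 16607127 fragments a library) and the counts behind low values. Tissue and diet came from the labels, which name different animals within a group. limma 3.58.1 under R 4.3.3 was fitted to log2(FPKM + 0.5) in each tissue, its eBayes step allowing for a variance trend, and genes whose mean over the fitted libraries was under 0.5 FPKM were left out. This scale understates the change of low genes. p-values were adjusted over all genes tested. To pass, a gene needed an adjusted p under 0.05 together with a log2 fold change of 1 or more in either direction. Tissues were compared over 9 CON libraries, and the diet effects by interaction over 18. Code was tested on simulated data.

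The alternatives were pseudocounts of 0.1 and 1, no filter, median-ratio scaling, mitochondrially encoded genes left out, a replicate block, arrayWeights, each library left out in turn, and the libraries of the study's quality table. Deviations of muscle libraries with the same number in CON and HSD correlated (r = 0.383, 0.177 and 0.184 across genes), whereas those of liver (-0.47, 0.395 and -0.21) and eWAT (-0.20, 0.0608 and 0.414) did not all do so. The block for tissue contrasts was the mouse. Genes named beside the 8 were, per tissue, pathway genes that passed, or else the 3 with the smallest p, and always *Acaa1a* and *Acot2*. The 8 genes and the lists were chosen with earlier results of these data known. Levels of different genes rest on exon lengths, which for *Hadha* (8730 bases of exons, 4017 in its longest coding transcript) and *Hadhb* (6595 and 2048) lower the FPKM. The same holds for *Acaa1a* (4414 and 1762), *Acot1* (3919 and 2272) and *Acadm* (3913 and 2047), and less so for *Acaa1b* (1962 and 1689). For *Acot2* both lengths are 2196. The levels of *Acaa1b* relative to *Acaa1a* and of *Acot2* relative to *Acot1* therefore depend on these lengths. Exons of *Acaa1b*, *Hadha* and *Acaa1a* share 224, 75 and 290 bases with a gene on the opposite strand.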

Additional observations from a re-analysis of the deposited data

How the results depend on the processing

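The number of the 8 genes that passed between diets stayed at 0 in liver, eWAT and muscle under the alternatives run, except with arrayWeights in liver (7). For the pathway genes it was 21 with arrayWeights and 2 over the quality table's libraries in liver, 1 with arrayWeights in eWAT, and 1 with the replicate block and from 0 to 2 with 1 library left out in muscle. Counts moved under median-ratio scaling to 6 for eWAT minus muscle (2 higher and 4 lower in eWAT) and 1 for liver minus eWAT. The interaction of liver minus eWAT gave from 0 to 1 with 1 library left out. The replicate block, with the mouse as the block in the tissue contrasts, changed no call of the 8 genes. It gave 54 genes in muscle in place of 35, and between tissues 30 pathway genes for eWAT minus muscle in place of 29. Over all genes the count in liver was 0, and 926 with arrayWeights, 35 over the quality table's libraries and 1 without CON 2. In eWAT it was 0, and 220 with arrayWeights, 160 without HSD 2 and 1 without CON 3. In muscle it was 35, and 7 with no filter, 57 without mitochondrially encoded genes and 10 to 61 with 1 library left out. The interactions gave 8, 0 and 99 genes (liver minus muscle, eWAT minus muscle, liver minus eWAT), and with 1 library left out 1 to 59, 0 to 145 and 37 to 544. Liver minus muscle gave 5 with a pseudocount of 0.1 and 4 without mitochondrially encoded genes, eWAT minus muscle 19 with a pseudocount of 1, 21 with no filter and 2 under median-ratio scaling, and liver minus eWAT 43 under that scaling and 49 without mitochondrially encoded genes. Median-ratio scaling gave 5189 genes in place of 8768 between liver and eWAT. Median-ratio scaling changed the split of all genes into higher and lower from 1893 and 4436 to 2941 and 3095 for liver minus muscle, from 5924 and 1009 to 2435 and 2285 for eWAT minus muscle, from 917 and 7851 to 2625 and 2564 for liver minus eWAT, and from 11 and 24 to 13 and 14 for the diet in muscle.

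Directions turned under some alternatives, and of the turned values *Hadhb* with arrayWeights in liver alone passed. In liver these were, with mitochondrially encoded genes left out, *Acadvl* (-0.24), *Hadha* (-0.18) and *Acaa1a* (-0.0199), and for *Hadhb* 0.00499 with a pseudocount of 0.1, 1.23 with arrayWeights and 1.04 over the quality table's libraries. Leaving out 1 liver library gave -0.16 to 0.60 for *Acadvl*, -0.0702 to 0.76 for *Hadha*, -0.44 to 0.68 for *Hadhb* and -0.0341 to 0.94 for *Acot1*. In eWAT arrayWeights gave 0.29 for *Acadl*, 0.00887 for *Acadvl* and 0.0472 for *Hadha*, and *Acot2* was -0.0577 under median-ratio scaling, -0.0429 without mitochondrially encoded genes and -0.0652 over the quality table's libraries. Leaving out 1 eWAT library gave -0.0199 to 0.83 for *Acaa1b*, -0.59 to 0.0163 for *Acadm*, -0.22 to 0.33 for *Acadl*, -0.29 to 0.0469 for *Acadvl*, -0.18 to 0.0876 for *Hadha*, -0.43 to 0.0189 for *Hadhb* and -0.0693 to 0.14 for *Acot2*. In muscle median-ratio scaling gave 0.0124 for *Ehhadh*, 0.029 for *Acadl* and 0.0298 for *Acaa1a*, arrayWeights gave 0.000564 for *Ehhadh* and 0.0292 for *Acaa1a*, and leaving out 1 library gave -0.23 to 0.0776 for *Ehhadh* and -0.16 to 0.00611 for *Acaa1a*. Between tissues, where *Hadha*, *Acadm* and *Ehhadh* were called lower in liver than in eWAT (-1.46, -1.35 and -1.11), median-ratio scaling gave -0.84 for *Acadm* in eWAT minus muscle, and in liver minus eWAT 0.50 for *Ehhadh*, 0.30 for *Acadm*, 0.66 for *Acadl*, 0.14 for *Hadha* and 0.75 for *Acot1*, for which leaving out 1 library gave -0.60 to 0.14. The cause was not tested.

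With 3 libraries a group the liver standard errors were 0.413 to 0.776 on the log2 scale, and a log2 fold change of 1 lay inside the 95% confidence interval of 7 of the 8 genes there. *Acot1*, and *Acaa1b* in muscle, rest on few fragments.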
